A study of Homo sapiens with 2 samples.

Results

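The human tissue kallikreins are secreted serine proteases whose genes lie side by side on the long arm of chromosome 19. Of the genes of that cluster, 10 were chosen by name: KLK1, KLK15, KLK3, KLK2, KLK4, KLK5, KLK7, KLK10, KLK11 and KLK14 in locus order. They are 10 of 51354 symbols in the deposited tables. All 10 had a row, but KLK1 with KLK15 and KLK2 with KLK3 each shared 1 joined row, so the 10 genes stood in 8 rows. RNA came from C4-2B, a human prostate cancer line of LNCaP descent that grows without androgen and spreads to bone, and the labels describe it as castration-resistant. Cells were treated with 2.5 µM MA4-022-1, which the labels call a BET-kinase inhibitor, or with DMSO as vehicle. Each group was 1 library of this 1 line, so differences between the groups rest on single libraries, without replicates and without p-values. The sources used here do not say how long the cells were exposed or whether the medium held androgen.

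In prostate luminal cells androgens drive transcription of KLK2, KLK3 and KLK4, and their proteins are released into seminal fluid. KLK3 encodes prostate-specific antigen, the serum marker used to follow prostate cancer, and KLK2 encodes a trypsin-like protease that can activate its precursor. Kallikreins are made as inactive precursors and work in cascades, and those at the far end of the cluster, such as KLK5, KLK7 and KLK14, are best known from the shedding of outer skin layers. BET proteins bind acetylated chromatin and act at many androgen-driven genes.

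The KLK2 and KLK3 promoters are shown because these neighbours, which shared a joined row, have closely related upstream sequence, and that of KLK4 because its gene differed from them between the libraries. Each is the 250 bases before the annotated start, from RefSeq on GRCh38.p14, whereas the deposited loci are on hg19. Capitals mark the best match to the androgen response element, taken as AGAACA and TGTTCT with 3 free bases between them and so 12 fixed letters, where it had at most 3 mismatches.

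KLK3, chr19:50854665-50854914, plus strand: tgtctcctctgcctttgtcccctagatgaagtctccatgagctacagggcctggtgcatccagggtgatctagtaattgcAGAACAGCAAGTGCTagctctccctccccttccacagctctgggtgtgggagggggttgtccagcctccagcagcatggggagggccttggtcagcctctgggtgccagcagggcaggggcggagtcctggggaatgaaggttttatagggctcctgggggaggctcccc

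KLK2, chr19:50873189-50873438, plus strand: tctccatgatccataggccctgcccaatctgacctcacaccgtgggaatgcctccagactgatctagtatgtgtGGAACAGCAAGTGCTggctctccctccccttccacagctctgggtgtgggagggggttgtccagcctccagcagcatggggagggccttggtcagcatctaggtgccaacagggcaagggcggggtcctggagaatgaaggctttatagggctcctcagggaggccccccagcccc

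KLK4, chr19:50911396-50911645, minus strand: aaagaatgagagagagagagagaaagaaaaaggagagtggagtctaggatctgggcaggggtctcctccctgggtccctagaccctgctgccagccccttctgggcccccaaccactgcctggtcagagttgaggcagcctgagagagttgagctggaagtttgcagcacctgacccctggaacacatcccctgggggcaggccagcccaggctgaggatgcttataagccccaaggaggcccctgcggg

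The KLK3 match began at position -170 from the start and had 2 mismatches, and the KLK2 match began at -176 and had 3. Among 35116 promoter windows of this length, 1.18% held a match with at most 2 mismatches and 9.17% one with at most 3. The KLK4 window shown had 5 mismatches at best. Of the 17 windows of the 9 members that matched the table, the other 15 had at least 4 mismatches, and KLK1 was not matched. The half-site AGAACA, searched on both strands and contained in the element above, was in 1 of the 17 windows, that of KLK3, against 12.4% of all windows. The letters TATAAA, on either strand, were in 3 of the 17 windows, against 10.7% of all, and lay at position -28 in KLK3 and -34 in KLK2. When aligned, KLK3 and KLK2 were identical at 206 of 250 bases, or 82.4%, while the highest value for any other pair of genes was 54.4%. A match of letters is a description of the reference and does not show binding.

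Values are RPKM, which scales reads by transcript length and by library total, so levels of different genes can be set side by side. Genes that reached 1 RPKM in either library were called expressed. Each difference is the log2 of RPKM + 1 with MA4-022-1 divided by RPKM + 1 with vehicle, with a threshold of 2-fold. The added 1 makes changes of weakly expressed genes look smaller. Among 15433 expressed genes the median log2 ratio was -0.02. Of them 7.74%, or 1195, passed 2-fold upward with MA4-022-1, and 9.58%, or 1478, passed it downward. Steps in low values placed the totals at about 19569746 reads in the MA4-022-1 library and 26554640 in the vehicle library. A single read on a transcript of 1500 nt then corresponded to 0.0392 RPKM with MA4-022-1 and 0.0289 RPKM with vehicle. Here and in all estimated reads, lengths were shortened by a fitted offset of 197 nt with MA4-022-1 and 196 nt with vehicle. Counting intervals below are exact 95% binomial intervals on reads estimated from these totals and a typical transcript length. They cover counting error only and leave out the spread between cultures.

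Among the 10 kallikreins, KLK4 was higher with MA4-022-1, the joined row of KLK2 and KLK3 was nearly level, and the joined row of KLK1 and KLK15 lay between. The remaining 5 genes were close to 0 in both libraries. Of the 8 rows, 3 were expressed, holding 5 of the 10 genes. All 3 had their higher value with MA4-022-1, and 1 of them, KLK4, passed 2-fold, while none was at least 2-fold lower. The background for that count is the 7.74% given above. The median log2 ratio of the 3 rows was 0.77, beside -0.02 over all expressed genes, of which slightly fewer were higher than lower. In bulk RNA, fewer cells of a type and less RNA per cell cannot be told apart.

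**Figure D1:**
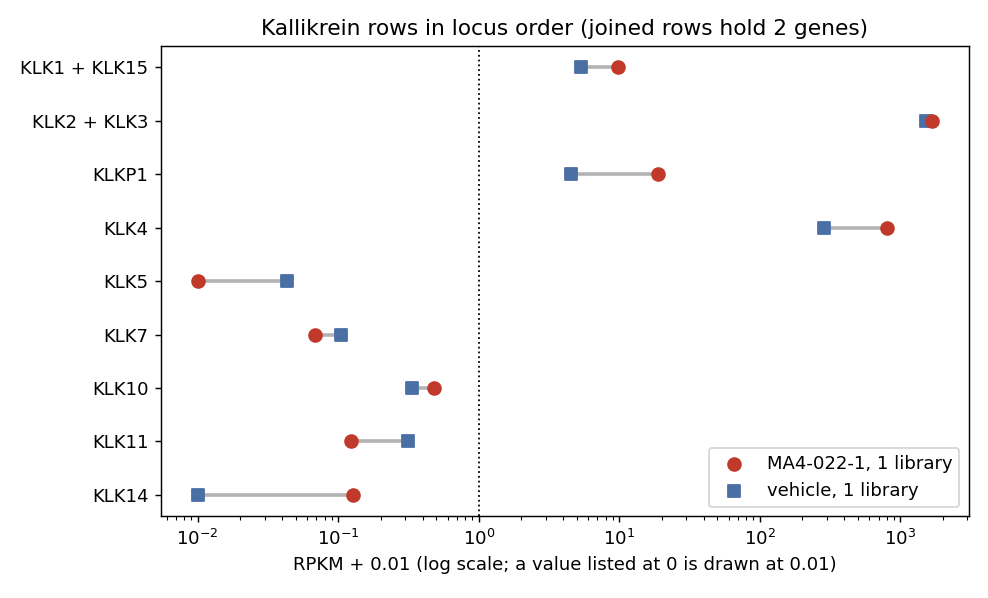
RPKM + 0.01 on a log axis for the 8 rows of the listed kallikreins and for KLKP1, in locus order from top to bottom, with 1 point per library (red circles, MA4-022-1; blue squares, vehicle) and a dotted line at 1 RPKM. KLK4 stands at 798 RPKM with MA4-022-1 and 285 with vehicle, and the rows from KLK5 to KLK14 stay at or below 0.468 RPKM.

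KLK4, also known as prostase, is a trypsin-like protease that matures tooth enamel and is made in the prostate under androgen control. It stood at 798 RPKM in the MA4-022-1 library, against 285 RPKM in the vehicle library (hg19 chromosome 19, 51408633 to 51413994, minus strand). The libraries are thus far apart at a high level. Its log2 ratio was 1.48, and the plain ratio of RPKM had a counting interval of 2.71 to 2.89. A ratio at least as high was seen in 2.86% of expressed genes. Among the 1479 genes at 100 RPKM or more in a library, 82, or 5.54%, were at least 2-fold higher. Ordered by level among the expressed genes, KLK4 was at place 152 with MA4-022-1 and at place 423 with vehicle.

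KLK2 and KLK3 were represented by a single value of 1675 RPKM in the MA4-022-1 library, against 1528 RPKM in the vehicle library (51358074 to 51383823, plus strand). These are the highest levels of the cluster in both libraries, and they differ little. The plain ratio was 1.10 with a counting interval of 1.08 to 1.11, and 41.1% of expressed genes had a log2 ratio at least as high as its 0.13. The row held place 88 with MA4-022-1 and place 83 with vehicle. Because the 2 genes share the row, neither has a value of its own, and opposite differences within the pair could not be seen. In the GENCODE release 29 transcripts, 11 exact stretches of 50 bases, the read length, were common to both genes, which is 0.159% of those of KLK2 and 0.215% of those of KLK3. No other pair of genes of the cluster, KLKP1 included, shared a stretch of that length.

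KLK1 encodes the tissue kallikrein that releases kinins from kininogen, and KLK15 is reported to activate the precursor of prostate-specific antigen. Their joined row stood at 9.84 RPKM in the MA4-022-1 library, against 5.37 RPKM in the vehicle library (51322404 to 51354345, minus strand). The value with MA4-022-1 is the higher, and both are far below KLK4. The log2 ratio was 0.77, within 2-fold, and the plain ratio was 1.83 with a counting interval of 1.40 to 2.42 on an estimated 127 and 94 reads. At least as high a log2 ratio was found in 12.7% of expressed genes. Its locus also holds 3 rows of the noncoding gene AC011523.2, so reads could be divided among them.

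The make-up of the kallikrein RNA in the cells therefore differed between the libraries. The 8 rows summed to 2484 RPKM with MA4-022-1 and 1819 RPKM with vehicle, a ratio of 1.37. The KLK2 and KLK3 row held 67.4% of that sum with MA4-022-1 and 84.0% with vehicle. KLK4 held 32.1% with MA4-022-1 and 15.7% with vehicle. The level of KLK4 was 47.7% of that of the KLK2 and KLK3 row with MA4-022-1 and 18.7% with vehicle. Without that row, the other 7 summed to 809 RPKM with MA4-022-1 and 291 RPKM with vehicle, a sum that is nearly all KLK4.

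The other 5 members were below 1 RPKM in both libraries. KLK10, an epithelial kallikrein, stood at 0.468 RPKM with MA4-022-1 and 0.327 RPKM with vehicle, an estimated 19 and 18 reads, and the interval of the ratio was 0.712 to 2.90. KLK11, first described in brain and prostate, stood at 0.112 RPKM with MA4-022-1 and 0.302 RPKM with vehicle, an estimated 1 and 5 reads with an interval of 0.00575 to 2.43. KLK10 and KLK11 lie in opposite directions, and both intervals include equal levels. KLK7, the chymotrypsin-like skin protease, was at 0.0582 RPKM with MA4-022-1 and 0.0948 RPKM with vehicle, or about 1 and 3 reads. KLK5, which activates KLK7 in skin, was listed at 0 with MA4-022-1 and at 0.0335 RPKM with vehicle. KLK14, which takes part in the same cascade, was at 0.117 RPKM with MA4-022-1 and listed at 0 with vehicle. For KLK5, KLK7, KLK11 and KLK14 the values rest on at most 5 estimated reads in a library, and no difference was detectable at this depth. On a transcript of 1500 nt, 3 reads would be 0.118 RPKM with MA4-022-1 and 0.0866 RPKM with vehicle.

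**Figure D2:**
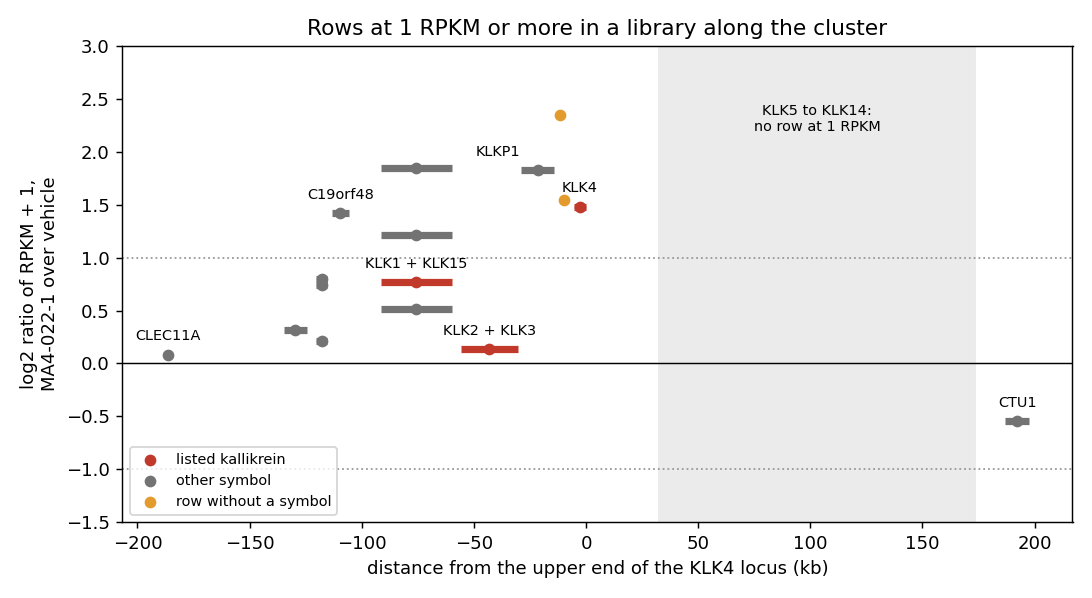
Log2 ratio of RPKM + 1, MA4-022-1 over vehicle, of rows at 1 RPKM or more in a library, against distance in kb from the upper end of the KLK4 locus. Bars span the deposited locus, red marks listed kallikreins, grey other symbols and orange rows without a symbol, dotted lines mark 2-fold, and the shaded stretch from KLK5 to KLK14 holds no row at 1 RPKM. KLKP1, KLK4 and the rows between them lie above 2-fold, while the KLK2 and KLK3 row lies at 0.13.

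Along the cluster, rows at 1 RPKM or more lay at one end, from KLK1 to KLK4. The 10 genes span 265 kb and 25 rows. Of the 10 rows up to and including KLK4, 9 were at 1 RPKM or more in a library. All 9 were higher with MA4-022-1 and 6 of them passed 2-fold, with a median log2 ratio of 1.48. Counted in the same way, row by row and with rows lacking a symbol, 13.4% of 19287 rows passed 2-fold upward, 50.8% were higher and the median was 0.02. These rows overlap in part and are not independent. Beyond KLK4, none of 15 rows reached 1 RPKM, the highest was 0.468 RPKM, and 8 were listed at 0 in both libraries.

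Next to KLK4, and on the same strand in GENCODE, lies KLKP1, a kallikrein pseudogene that is transcribed. KLKP1 stood at 18.7 RPKM in the MA4-022-1 library, against 4.56 RPKM in the vehicle library (51385127 to 51399654). Its log2 ratio of 1.83 was above that of KLK4, and the plain ratio was 4.10 with a counting interval of 3.32 to 5.15. KLKP1 was at 2.34% of the level of KLK4 with MA4-022-1 and at 1.60% with vehicle. The gap of 8978 bases between the KLKP1 and KLK4 loci held 2 rows without a symbol. The first, at 51402009 to 51402363, stood at 6.50 RPKM with MA4-022-1 and 0.477 RPKM with vehicle. The second, at 51403587 to 51404338, stood at 3.46 RPKM with MA4-022-1 and 0.535 RPKM with vehicle. Both were thus higher with MA4-022-1, with counting intervals of the ratio of 3.32 to 120 and 2.97 to 16.0, on an estimated 20 and 2 reads for the first and 38 and 8 for the second. On the other side of KLK2 and KLK3, the rows of AC011523.2 summed to 22.3 RPKM with MA4-022-1 and 7.64 RPKM with vehicle, a log2 ratio of 1.43. The sources used here do not say whether reads were counted by strand, so overlapping and antisense transcripts cannot be told apart in these values.

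Kallikreins outside the chosen 10 added little. KLK6, KLK13 and the joined row of KLK8 and KLK9 were listed at 0 in both libraries. KLK12 was at 0.109 RPKM with MA4-022-1 and 0.0798 RPKM with vehicle, about 2 reads each. Plasma kallikrein KLKB1, encoded on chromosome 4, was in a row joined with CYP4V2 at 11.9 RPKM with MA4-022-1 and 21.9 RPKM with vehicle.

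**Figure D3:**
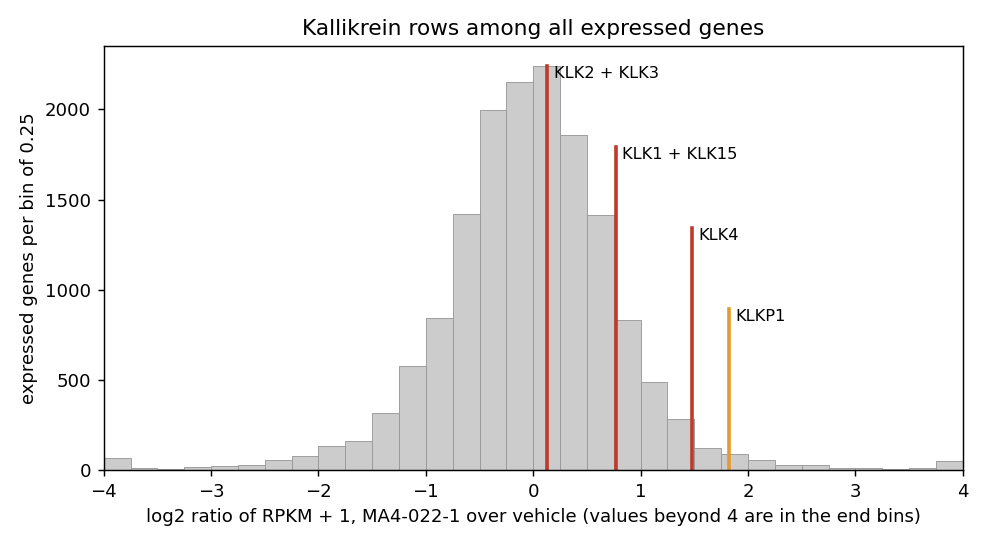
Number of expressed genes in bins of 0.25 of the log2 ratio of RPKM + 1, MA4-022-1 over vehicle, with vertical lines at the rows of KLK2 and KLK3 (0.13), KLK1 and KLK15 (0.77), KLK4 (1.48) and KLKP1 (1.83). Line heights only separate the labels, and the KLK2 and KLK3 row falls in the middle of the distribution.

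The cells carried luminal prostate markers in both libraries. All 8 luminal markers with a row of their own were expressed and all lay within 2-fold, with a median log2 ratio of 0.04. All 4 basal markers were below 1 RPKM in both libraries, and of these KRT5 was listed at 0 in both. Of the neuroendocrine markers 1 of 4 was expressed, SYP at 3.17 RPKM with MA4-022-1 and 1.20 RPKM with vehicle, and the other three were below 0.290 RPKM. Of the fibroblast markers 1 of 4 was expressed, COL1A1 at 5.03 RPKM with MA4-022-1 and 1.19 RPKM with vehicle, while DCN was at 0.319 RPKM with MA4-022-1 and 0.713 RPKM with vehicle. Of the immune markers, the 3 with a row of their own were below 1 RPKM. The part of these differences in the kallikrein values was not tested.

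Transcription factors and coregulators that act on androgen-driven genes had a median log2 ratio of 0.19 over 20 expressed members, of which 2 passed 2-fold upward, 1 passed it downward and 17 lay within it. The shares over all expressed genes, here and for the lists below, were 7.74% upward and 9.58% downward. BRD2, a BET protein, was at 387 RPKM with MA4-022-1 and 102 RPKM with vehicle, and the coactivator NCOA3 at 11.3 RPKM with MA4-022-1 and 4.97 RPKM with vehicle. The epithelial ETS factor ELF3 was at 4.56 RPKM with MA4-022-1 and 11.2 RPKM with vehicle. SPDEF, an ETS factor of prostate epithelium that binds the KLK3 promoter, stood at 18.5 RPKM with MA4-022-1 and 37.9 RPKM with vehicle, and was within 2-fold only through the added 1. Among 30 other expressed genes with a row of their own that androgens activate, the median was 0.13, and 1 passed 2-fold upward and 6 downward. The 4 largest differences among them were lower with MA4-022-1, unlike KLK4, and were those of KRT19, TRPM8, ALDH1A3 and IQGAP2, at log2 ratios of -3.09, -2.49, -2.38 and -2.27.

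**Figure D4:**
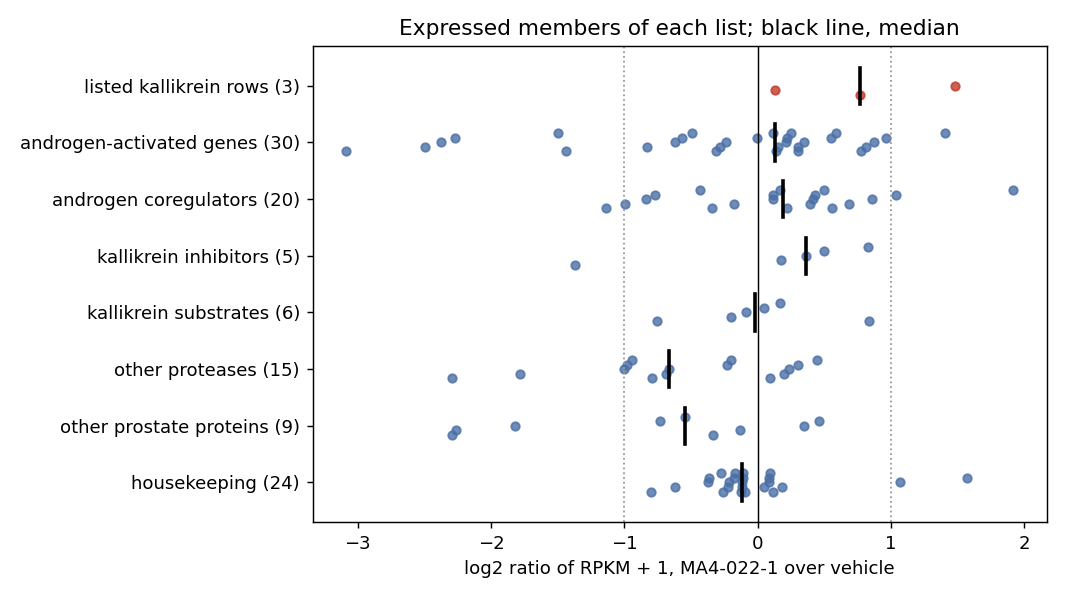
Log2 ratio of RPKM + 1, MA4-022-1 over vehicle, for each expressed member of 8 sets, with the number of members in brackets, a black line at the median and dotted lines at 2-fold. Joined rows are drawn for the kallikreins only. The 3 kallikrein rows (red) lie at 0.13, 0.77 and 1.48, and androgen-activated genes reach down to -3.09.

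Inhibitors and substrates of kallikreins were mostly below 1 RPKM or within 2-fold. Of 15 inhibitor genes with a row of their own, 5 were expressed and had a median log2 ratio of 0.36. Among them 1 passed 2-fold, downward. It was SERPINB6, an intracellular serpin, at 43.9 RPKM with MA4-022-1 and 115 RPKM with vehicle. SPINT1, which inhibits trypsin-like proteases at the cell surface, was at 28.1 RPKM with MA4-022-1 and 19.6 RPKM with vehicle, and the secreted inhibitor SLPI at 27.5 RPKM with MA4-022-1 and 21.2 RPKM with vehicle. SERPINA5 and SERPINA3, which form complexes with kallikreins in seminal fluid and blood, were in 1 row joined with SERPINA4, at 4.08 RPKM with MA4-022-1 and 6.22 RPKM with vehicle. Of 27 substrate genes, 6 were expressed and all 6 lay within 2-fold of RPKM + 1, with a median of -0.02. IGFBP3, a growth factor binding protein that prostate-specific antigen cleaves, was at 5.53 RPKM with MA4-022-1 and 2.66 RPKM with vehicle, within 2-fold only through the added 1, and fibronectin FN1 at 22.6 RPKM with MA4-022-1 and 38.8 RPKM with vehicle. LAMA5 and CDH1 were at log2 ratios of -0.20 and -0.09. All 24 housekeeping genes with a row of their own were expressed, with a median of -0.12, and 2 passed 2-fold, both upward. These were POLR2A, a subunit of RNA polymerase II, at 31.8 RPKM with MA4-022-1 and 10.1 RPKM with vehicle, a log2 ratio of 1.57, and B2M, the light chain of MHC class I, at 1853 RPKM with MA4-022-1 and 883 RPKM with vehicle.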

How the data were processed

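Total RNA, depleted of ribosomal RNA, was made into ScriptSeq libraries and sequenced as single 50 bp reads, per the labels' protocols. TopHat2 2.0.13 and Cufflinks 2.2.1 with hg19 are named in the submitters' processing notes, without naming an annotation. The authors deposited RPKM per gene and locus for each library, per the file headers, so no count test was run. Each table held 62271 rows. Rows without a symbol, 2751 in all, were left out of gene counts and medians, as were short RNA symbols, and rows of 1 symbol were summed. Joined rows were kept and counted once, except in the gene lists. There only genes with a row of their own entered the counts and medians.

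The members and lists were chosen with earlier results of these data known. Named genes were all kallikreins, the flanking genes within 500000 bases at 5 RPKM or more, and per list up to 4 genes with the largest ratios at that level. SYP, DCN, CTU1, AC011523.2, the rows without a symbol and joined rows were named outside that rule, and a few results are not reported here.

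Depth was estimated from processed pseudogenes alone in their locus, where 89.2% of 185 values of up to 5 reads with MA4-022-1 and 88.8% of 241 with vehicle lay within 2% of a whole read. The offset taken off each length was fitted together with the depth. Reads of other genes used median transcript lengths of GENCODE release 29, for which coordinates were not used. These lengths were shortened by the same offset. For a joined row the median ran over the transcripts of both genes. Python 3.11.15, numpy 2.4.6, pandas 2.3.3, scipy 1.17.1, biopython 1.88 and matplotlib 3.10.9 were used.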

Additional observations from a re-analysis of the deposited data

How the results depend on the processing

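KLK4 was the 1 kallikrein row at least 2-fold higher, and none was at least 2-fold lower, under 10 of 12 alternatives, which changed the pseudocount, the filter, the scale, the treatment of joined or repeated rows and the short RNAs. The others moved the threshold itself. Of the 10, those on the filter, the joined or repeated rows and the short RNAs could not move KLK4, a single unjoined row at a high level. At 1.5-fold, 2 kallikrein rows were higher, and 2906 of all expressed genes were higher and 3187 lower. At 3-fold, 0 kallikrein rows were higher, and 377 genes were higher and 513 lower. The log2 ratio of KLK4 ran from 1.36 to 1.60, that of KLK1 and KLK15 from 0.52 to 0.88 and that of KLK2 and KLK3 from 0.01 to 0.25, so no sign changed. Over all genes, a pseudocount of 0.1 gave 1957 higher, and one of 5 gave 442 higher and 661 lower, while a filter of 5 RPKM gave 745 higher. The share of higher among called genes was 44.7% as reported and 57.2% with the housekeeping genes set to 0, a shift of 0.12, where 1543 were higher and 1156 lower. With equal sums of RPKM it was 36.3%, with 987 higher and 1731 lower. No paired analysis was possible because each group held 1 library, and for the same reason none could be left out. Below about 0.1 RPKM the kallikrein values rest on an estimated 3 reads or fewer.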

Other observations

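Within 500000 bases of the outermost members, 71 other symbols had a row and 21 were expressed. Their median log2 ratio was 0.37, beside -0.02 over all expressed genes, of which slightly fewer were higher than lower. With MA4-022-1, 17 of the 21 were higher and 2 passed 2-fold upward, while none passed it downward, beside 7.74% upward and 9.58% downward over all expressed genes. The nearest strongly expressed neighbour was C19orf48, which hosts the small nucleolar RNA SNORD88A. C19orf48 stood at 735 RPKM with MA4-022-1 and 275 RPKM with vehicle, a log2 ratio of 1.42 and a plain ratio of 2.68 with a counting interval of 2.61 to 2.74. EMC10, of the complex that inserts membrane proteins, was within 2-fold at 79.0 RPKM with MA4-022-1 and 41.7 RPKM with vehicle. The joined row that holds ETFB, of the electron transfer flavoprotein, was at 86.2 RPKM with MA4-022-1 and 138 RPKM with vehicle. Beyond KLK14, CTU1 was the nearest expressed gene and was within 2-fold, at a log2 ratio of -0.54.

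Other proteases had a median log2 ratio of -0.66 over 15 expressed genes, of which 2 passed 2-fold downward and none upward, beside 9.58% and 7.74% of all expressed genes. The dipeptidyl peptidase DPP4 was at 8.50 RPKM with MA4-022-1 and 45.5 RPKM with vehicle, and PRSS27 at 2.62 RPKM with MA4-022-1 and 11.5 RPKM with vehicle. Within 2-fold only through the added 1 RPKM were the proprotein convertase PCSK6, at 8.31 RPKM with MA4-022-1 and 17.6 RPKM with vehicle, and hepsin, HPN, at 18.2 RPKM with MA4-022-1 and 36.8 RPKM with vehicle. Other secreted or surface proteins of the prostate had a median of -0.55 over 9 expressed genes with a row of their own. Of these, 3 passed 2-fold downward and none upward. The 3 were ACPP, DPP4, which was counted among the proteases as well, and TGM4. TGM4 was at 0.0158 RPKM with MA4-022-1 and 3.86 RPKM with vehicle. The value with MA4-022-1 is below the 0.0392 RPKM of 1 read on a transcript of 1500 nt. Prostatic acid phosphatase, ACPP, was at 3.07 RPKM with MA4-022-1 and 13.4 RPKM with vehicle, whereas AZGP1 was at 488 RPKM with MA4-022-1 and 384 RPKM with vehicle.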
